A study of Mus musculus with 13 samples.

Results

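The nuclear-encoded subunits of the respiratory chain were followed in RNA-seq of mouse Th17 cells. They were taken as the gene rows whose symbol starts with Ndufa, Ndufb, Ndufc, Ndufs, Ndufv, Uqcr, Cox4 to Cox8 or Atp5, or is Sdha, Sdhb, Sdhc or Sdhd, with at least 1 count in every library. Assembly factors named Ndufaf (8 rows) and rows named as pseudogenes (9 rows) were left out. Of 90 remaining rows, 83 met the rule, out of 56941 gene rows in all: 39 of complex I, 4 of complex II, 8 of complex III, 15 of complex IV and 17 of complex V. The 7 that did not were Cox4i2, Ndufa4l2, Cox7b2, Cox8b, Cox8c, Ndufa11b and an extra identifier of Atp5o. Cox4i2 held 0 to 8 counts and Ndufa4l2 0 to 6 counts per library, and the other 5 rows held 0 in all 6. Just inside the rule lay Ndufb4c (6 to 16 counts), Cox7a1 (5 to 28) and Cox6c2 (13 to 21).

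Naive CD4+ T cells from mouse spleen were cultured for 72 hours under conditions that polarize them to Th17 cells, helper T cells that make IL-17A and IL-17F. The 3 libraries labelled WT carried the genotype Chaf1bWT. The 3 libraries labelled KO carried Chaf1bfl/fl;Il17fCre+, floxed Chaf1b alleles with a Cre recombinase named for Il17f, a gene that is switched on as cells become Th17 cells; Chaf1b encodes a subunit of the histone chaperone CAF-1. The labels speak of biological replicates without stating if they were separate mice, so a p-value here reflects only how much these libraries vary. The sources used here do not state whether WT mice carried Cre, how old the mice were or in how many cells Cre had acted.

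The respiratory chain passes electrons from NADH (complex I) and succinate (complex II) through ubiquinone, complex III and cytochrome c to oxygen at complex IV, and complex V uses the proton gradient so made to synthesize ATP. A few core subunits are encoded by mitochondrial DNA, all of complex II and the great majority of the other subunits by nuclear genes. T cells leaving the resting state raise both respiration and glycolysis, and Th17 cells are known to depend on both to varying degrees.

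Libraries held 35708879 to 45232055 counts. The KO label did not go with a lower Chaf1b total: the gene's raw counts were 541, 438 and 525 for WT and 572, 567 and 498 for KO, or 12.0 ± 0.990 against 14.9 ± 1.38 CPM (counts scaled to the size of the library, mean ± SD, n = 3; log2 fold change 0.31 ± 0.11 SE, edgeR adjusted p = 0.130). The sources used here do not state which exons were deleted, and reads outside them would still be counted. Of the 8 markers of CD4 T and Th17 cells, 4 were lower in KO, Il17a and Il17f among them, and none was higher. Mean CPM was 78.3 and 74.7 for Cd3e, and 66.4 ± 32.7 and 8.98 ± 0.792 for Il17a, in WT and KO. Summed markers of other cells were low: CD8 T cells 14.1 to 16.0 CPM in WT and 12.4 to 16.6 in KO, NK cells 2.44 to 2.85 and 4.22 to 5.21 (all from Eomes, with Ncr1, Klrb1c and Klra8 at 0 counts), B cells 14.1 to 19.0 and 9.20 to 11.6 (nearly all Ebf1), myeloid cells 2.44 to 2.84 and 6.27 to 7.89, and erythroid cells 0.390 to 0.835 and 1.49 to 4.94. The 1 tested NK marker (Eomes), 1 of 4 myeloid markers (Fcer1g) and the 1 tested erythroid marker (Hbb-bt) were higher in KO, 1 of 2 tested B cell markers (Ebf1) was lower, and neither CD8 marker passed. Their part in the values below was not tested. In bulk RNA, fewer cells of a type and less RNA per cell cannot be told apart.

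The promoters of the subunit genes are shown first, because nuclear respiratory genes are known as targets of NRF1, the ETS factor GABP and YY1. RefSeq promoters of GRCm38.p6, from 250 bases before to 50 bases after a transcription start, were at hand for 65 of the 83 genes, with 70 windows. Both strands were searched for GCGCA, any base and GCGC in a row (NRF1), CCGGAAG (ETS factors such as GABP) and AAGATGGC (YY1); the NRF1 word can read on both strands at 1 place, and each promoter was counted once per word. The NRF1 word was in 18 of 70 windows (25.7%), against 9.85% of 12738 promoters of tested genes and 4.60% of 32851 promoters in all. The ETS word was in 16 (22.9%), against 17.7% and 8.86%, and the YY1 word in 9 (12.9%), against 4.41% and 2.75%. These shares are a description, with no test. Complex I held 7 of the 9 YY1 words in 35 windows and complex V the other 2 in 16. Of those 9, 8 read on the strand of the gene and began 23 to 39 bases after the start. NRF1 words were in 8 of 35 windows of complex I, 2 of 3 of complex II, 1 of 5 of complex III, 1 of 11 of complex IV and 6 of 16 of complex V.

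The windows below run from 170 bases before to 30 bases after the start, 5′ to 3′ on the strand of the gene, with the searched words in capitals. Cox6a1 (chr5:115348929-115349128, minus strand) and Cox6b2 (chr7:4753065-4753264, minus) belong to 2 of the genes with the smallest p-values, Cox6b1 (chr7:30626085-30626284, minus) is the main copy beside Cox6b2, Sdhd (chr9:50603820-50604019, minus) holds an NRF1 and an ETS word, and Ndufa3 (chr7:3617203-3617402, plus) has the YY1 word after its start.
Cox6a1: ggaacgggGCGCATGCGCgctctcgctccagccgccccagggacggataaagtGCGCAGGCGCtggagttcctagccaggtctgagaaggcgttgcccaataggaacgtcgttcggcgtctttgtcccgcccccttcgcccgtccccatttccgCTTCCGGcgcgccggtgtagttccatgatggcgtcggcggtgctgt
Cox6b1: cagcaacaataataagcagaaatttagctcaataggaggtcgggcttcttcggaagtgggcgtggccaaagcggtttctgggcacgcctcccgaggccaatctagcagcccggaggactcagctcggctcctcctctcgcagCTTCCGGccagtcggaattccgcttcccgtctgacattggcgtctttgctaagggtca
Cox6b2: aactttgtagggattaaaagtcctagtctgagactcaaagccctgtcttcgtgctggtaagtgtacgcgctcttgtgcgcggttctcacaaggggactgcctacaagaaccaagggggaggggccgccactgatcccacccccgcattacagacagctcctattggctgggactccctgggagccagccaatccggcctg
Sdhd: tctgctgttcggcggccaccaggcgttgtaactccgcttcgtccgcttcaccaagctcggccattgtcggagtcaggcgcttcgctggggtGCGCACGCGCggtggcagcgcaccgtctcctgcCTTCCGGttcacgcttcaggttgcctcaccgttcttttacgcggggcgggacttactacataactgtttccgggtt
Ndufa3: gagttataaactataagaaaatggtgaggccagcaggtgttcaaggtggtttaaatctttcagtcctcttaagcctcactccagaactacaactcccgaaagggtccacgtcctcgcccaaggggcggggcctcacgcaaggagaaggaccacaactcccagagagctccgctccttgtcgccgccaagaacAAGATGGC
In Cox6a1 the NRF1 words begin 162 and 117 bases before the start and the ETS word 16 bases before it. Sdhd has its NRF1 word 79 bases and its ETS word 46 bases before the start, and Cox6b1 has 1 ETS word 28 bases before the start. The Cox6b2 window holds none of the 3 words, and in Ndufa3 the YY1 word covers bases 23 to 30 after the start.

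No nuclear-encoded subunit differed between genotypes past the threshold. Of the 82 subunits that passed the filter on low counts (Ndufb4c did not, at 0.217 ± 0.0468 CPM in WT and 0.251 ± 0.146 in KO), edgeR's quasi-likelihood test called 0 higher and 0 lower in KO at an adjusted p under 0.05, while it called 6.39% of all 14681 genes (3.92% higher and 2.47% lower). Among genes of at least 20 CPM, 8.24% of 7163 were called, and none of the 68 subunits at that level. Before adjustment, 14 of 82 subunits (17.1%) had p under 0.05, against 21.1% of all genes. Of these, 10 were higher in KO (12.2%, against 10.9% of all genes) and 4 lower (4.88%, against 10.2%). For 21 subunits (25.6%) the 3 values of one genotype all lay beyond the 3 of the other, against 26.8% of all genes. KO lay above for 16 (19.5%, against 14.4%) and below for 5 (6.10%, against 12.4%). With both directions counted, these shares were near or under those of all genes; higher in KO they were above, and lower in KO below. No test was made of these differences in share. DESeq2's Wald test called 2 subunits higher and none lower, and limma-voom with library weights 12 higher and none lower, where these tools called 8.32% and 20% of all genes.

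The differences were also bounded closely. The median log2 fold change of the subunits (KO over WT) was 0.02, beside -0.01 over all genes, and 47 subunits lay above 0 and 35 below. The 95% interval of 75 of 82 subunits (91.5%) lay within a 1.5-fold change in either direction, against 63.4% of all genes. For the 68 subunits of at least 20 CPM it did so in each case, beside 96.9% of all genes at that level. The 7 subunits whose interval reached beyond 1.5-fold were Ndufb2, Ndufs6b, Cox6a2, Cox6b2, Cox6c2, Cox7a1 and Atp5k.

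**Figure D1:**
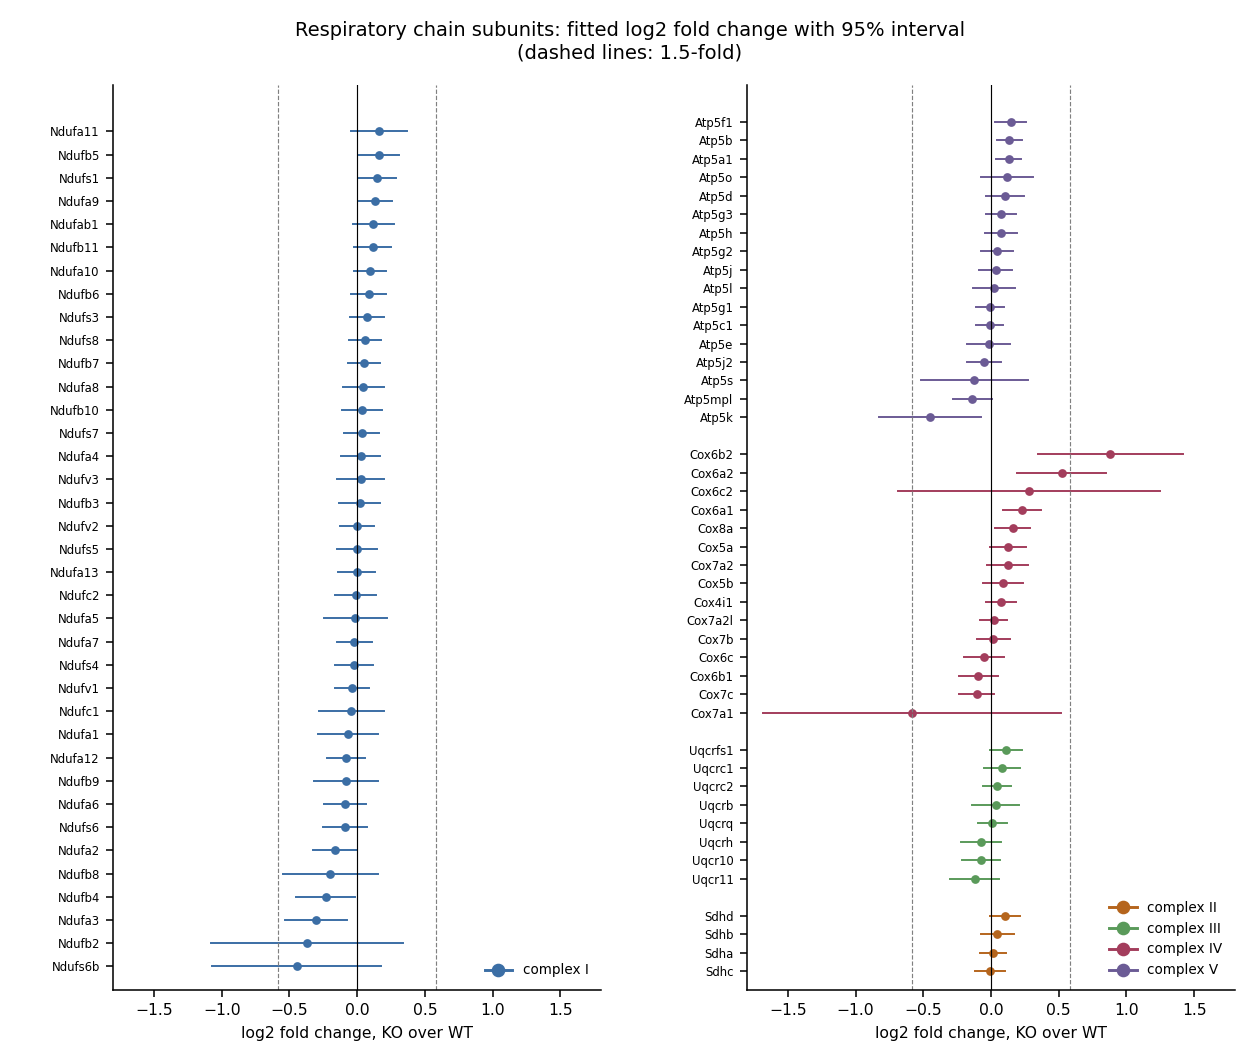
Log2 fold change (KO over WT) of tested subunits with the 95% interval, grouped by complex; the x axis is log2. No subunit shown passed the threshold, and the widest intervals belong to genes of few counts such as Cox7a1 and Cox6c2.

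Among the fits with 1 library left out, the count of calls changed most without WT replicate 1. Without that library, 14 subunits were called higher and 1 lower (18.3% of 82), as were 19.7% of all genes. Those higher included Cox6a1, Cox8a, Cox6b2, Cox6a2, Atp5b, Atp5d, Atp5a1, Sdhd and Uqcrfs1, and the 1 lower was Ndufb4. Their log2 fold changes were then 0.92 for Cox6b2, 0.50 for Cox6a2, 0.30 for Cox6a1, 0.22 for Cox8a, 0.17 for Atp5b and -0.27 for Ndufb4. Without WT replicate 3, edgeR called 1 subunit (Atp5f1, log2 fold change 0.19, adjusted p = 0.0469), or 1.2%, against 6.77% of all genes. Without any of the other 4 libraries none was called, where 1.94% to 2.42% of all genes were.

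Complex I oxidizes NADH at a core of conserved subunits surrounded by many supernumerary ones. Its 38 tested subunits lay evenly around 0, with 18 above and 20 below and a median log2 fold change of -0.00 (range -0.45 to 0.16). In the core, Ndufs1, the largest iron-sulfur subunit, stood at 60.9, 68.1 and 66.3 CPM in WT and 75.1, 71.1 and 70.3 in KO. All KO libraries were above all WT libraries, by 0.15 ± 0.06 (SE) on the log2 scale (edgeR adjusted p = 0.190). Ndufv1, which binds NADH and the flavin, was at 112, 99.6 and 106 CPM in WT and 105, 101 and 103 in KO, inside the WT range.

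Among the supernumerary subunits of complex I, values lay on both sides. Ndufa3 was at 18.6, 16.1 and 17.8 CPM in WT and 15.8, 13.6 and 13.0 in KO, each KO value under each WT value (-0.30 ± 0.11, edgeR adjusted p = 0.119). Ndufb4 was at 26.2, 24.8 and 32.2 CPM in WT and 23.8, 23.2 and 24.0 in KO, also without overlap (-0.23 ± 0.10, adjusted p = 0.206), and here WT replicate 3 stood well above the others. Ndufa2 was lower before adjustment as well (-0.17 ± 0.07, adjusted p = 0.224), with overlapping groups. In the other direction, Ndufa9 was at 80.1, 82.2 and 76.1 CPM in WT and 89.3, 87.1 and 85.2 in KO (0.14 ± 0.05, adjusted p = 0.177), and Ndufb5 at 39.8, 38.0 and 35.8 against 43.2, 41.8 and 42.0 (0.16 ± 0.07, adjusted p = 0.187). Both were without overlap. Ndufa10 (0.10 ± 0.05) and Ndufa4 (0.03 ± 0.07), the latter a subunit now placed at complex IV, had overlapping groups. The widest differences of the complex were in 2 genes of few counts. Ndufs6b, a copy of Ndufs6, was counted 51, 46 and 48 times in WT and 30, 35 and 29 times in KO (-0.45 ± 0.28, adjusted p = 0.412), and Ndufb2 73, 83 and 51 times against 53, 59 and 31 (-0.37 ± 0.32, adjusted p = 0.572). Ndufb1-ps, which the rule leaves out by its name, was at 36.1 CPM in WT and 31.4 in KO (-0.20 ± 0.11, adjusted p = 0.329).

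Complex II, succinate dehydrogenase, is also an enzyme of the citric acid cycle, and its 4 subunits had log2 fold changes from -0.01 to 0.10. Sdha, the flavoprotein, was at 208, 207 and 210 CPM in WT and 208, 211 and 211 in KO, a log2 fold change of 0.01 ± 0.04 with a 95% interval from -0.08 to 0.11. Sdhb, the iron-sulfur subunit, was at 122, 110 and 116 CPM against 123, 120 and 116, and the membrane anchor Sdhc at 86.2, 81.6 and 83.3 against 82.5, 83.8 and 83.8. Both overlapped. The other anchor, Sdhd, was at 111, 105 and 107 CPM in WT and 118, 115 and 113 in KO. Its groups did not overlap (0.10 ± 0.05, edgeR adjusted p = 0.264).

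Complex III, the cytochrome bc1 complex, had 8 tested subunits, 5 above and 3 below 0, with a median of 0.02 and a range from -0.12 to 0.11 on the log2 scale. None had an unadjusted p under 0.05. Uqcrfs1, the Rieske iron-sulfur protein, was the 1 of these 8 without overlap, at 146, 145 and 132 CPM in WT and 155, 149 and 152 in KO (0.11 ± 0.05, edgeR adjusted p = 0.281). Cyc1, a subunit outside the rule, is given below. The core proteins Uqcrc1 (191, 178 and 167 CPM in WT, 198, 190 and 179 in KO) and Uqcrc2 (197, 200 and 195 against 211, 207 and 194) overlapped, as did Uqcrq (194, 189 and 190 against 198, 196 and 184). Uqcr11, a small accessory subunit, had the lowest log2 fold change of the complex (-0.12 ± 0.08, adjusted p = 0.449), at 29.4, 26.1 and 30.8 CPM in WT and 25.9, 26.4 and 27.2 in KO.

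Complex IV, cytochrome c oxidase, held the subunits with the smallest p-values. Of its 15 tested subunits 11 lay above 0 and 4 below, with a median of 0.09. An unadjusted p under 0.05 was found for 4 of the 15, all with KO above WT: Cox6a1, Cox8a, Cox6a2 and Cox6b2. The share over all genes was 21.1%, with 10.9% higher in KO, and no test was made of this difference in share. Cox6a1, the ubiquitous form of subunit VIa, was at 202, 179 and 168 CPM in WT and 221, 215 and 208 in KO. Each KO library was above each WT library, at 215 ± 6.15 against 183 ± 17.0 CPM (SD, n = 3), a log2 fold change of 0.23 ± 0.06 with a 95% interval from 0.09 to 0.37 (edgeR adjusted p = 0.0620). Cox8a was at 148, 133 and 127 CPM in WT and 150, 156 and 149 in KO, also without overlap, though WT replicate 1 came close (0.16 ± 0.06, adjusted p = 0.150). Cox4i1, the ubiquitous form of subunit IV, overlapped at 268, 242 and 249 against 276, 259 and 264 CPM. Cox7a2l, which links complexes III and IV into supercomplexes, was at 247, 245 and 238 CPM in WT and 253, 246 and 241 in KO (0.02 ± 0.04). Cox7c was the 1 subunit of the complex with all KO libraries lower, at 112, 108 and 125 against 108, 106 and 107 CPM (-0.11 ± 0.06, adjusted p = 0.344).

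Several complex IV subunits have a second copy that is known from heart and skeletal muscle (Cox6a2, Cox7a1) or testis (Cox6b2), and these were present at low counts. Cox6a2 was at 5.12, 6.31 and 4.55 CPM in WT and 7.55, 7.29 and 8.04 in KO, without overlap (0.52 ± 0.15, 95% interval 0.19 to 0.85, edgeR adjusted p = 0.0641). DESeq2's Wald test called Cox6a1 and Cox6a2 (adjusted p = 0.0208 and 0.0408), and so did edgeR with no filter on low counts (0.00239 and 0.0235). Cox6b2 was counted 42, 37 and 42 times in WT and 62, 73 and 62 times in KO, or 0.970 ± 0.0508 against 1.79 ± 0.116 CPM. Its log2 fold change of 0.88 ± 0.24 was the widest of all subunits, with a 95% interval from 0.35 to 1.42 and the smallest adjusted p of the 82, 0.0568. Set against its main copy, Cox6b2 had 1.31 ± 0.143% of the counts of Cox6b1 in WT and 2.56 ± 0.197% in KO, without overlap, while Cox6b1 itself was at 74.6, 68.7 and 80.8 CPM against 71.4, 68.8 and 69.9 (-0.09 ± 0.07, adjusted p = 0.463). Cox6a2 had 2.92 ± 0.524% of the counts of Cox6a1 in WT and 3.56 ± 0.260% in KO, with overlap. Cox7a1 was counted 19, 22 and 28 times in WT and 17, 5 and 18 times in KO (-0.59 ± 0.50, adjusted p = 0.562), with KO replicate 2 low and the groups overlapping. Its main copy Cox7a2 was at 57.9, 53.7 and 52.1 CPM in WT and 62.8, 60.7 and 54.8 in KO. Cox6c2 stayed at 13 to 21 counts in every library (0.28 ± 0.44). Multi-mapping reads were not counted, so the counts of near-identical copies such as Ndufs6b, Cox6c2 and Ndufb4c are uncertain. Whether reads of other subunits were lost as well, such as Ndufb2, Ndufb8 or Atp5o (with its extra identifier at 0 counts), was not tested.

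**Figure D2:**
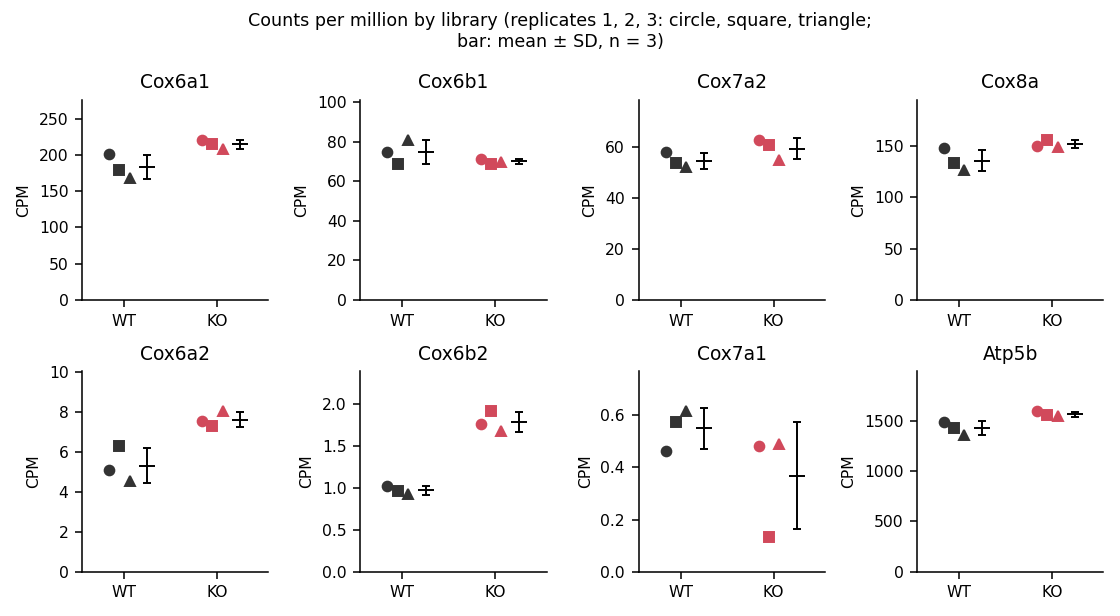
CPM in each WT and KO library (1 point per library, bars mean ± SD, n = 3) of complex IV subunits and Atp5b; each panel has its own y axis, starting at 0. For Cox6a1, Cox6a2, Cox6b2, Cox8a and Atp5b all KO points lie above all WT points, while those of Cox6b1, Cox7a1 and Cox7a2 overlap.

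Complex V, the ATP synthase, had 17 tested genes, 10 above and 7 below 0, with a median of 0.03. The catalytic head had the smallest p-values of the complex: Atp5b, the catalytic beta subunit, was at 1491, 1430 and 1357 CPM in WT and 1592, 1554 and 1547 in KO, and Atp5a1, the alpha subunit, at 901, 897 and 842 against 977, 961 and 951. Neither pair of groups overlapped. Both log2 fold changes were 0.13 ± 0.04, with 95% intervals from 0.04 to 0.23 and from 0.04 to 0.22 (edgeR adjusted p = 0.0883 and 0.0909). Atp5d, Atp5c1 and Atp5e, of the central stalk, had log2 fold changes of 0.10, -0.01 and -0.02 and overlapping groups. Atp5d was at 226, 194 and 189 CPM in WT and 224, 216 and 215 in KO. It was called higher by limma-voom (0.16, adjusted p = 0.0149) and by edgeR without WT replicate 1 (0.19, adjusted p = 0.00105). Atp5f1, subunit b of the peripheral stalk, was at 220, 235 and 247 CPM in WT and 264, 258 and 254 in KO, without overlap (0.14 ± 0.05, adjusted p = 0.132). Atp5o, the stalk protein that confers oligomycin sensitivity, also did not overlap, at 14.0, 14.3 and 14.2 against 15.5, 15.5 and 15.1 CPM (0.12 ± 0.09, adjusted p = 0.479).

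The 3 genes that encode the same mature subunit c of the membrane ring overlapped between genotypes. Atp5g1 was at 161, 153 and 154 CPM in WT and 158, 154 and 152 in KO, Atp5g2 at 162, 146 and 150 against 163, 157 and 152, and Atp5g3 at 178, 180 and 183 against 201, 186 and 183. Atp5k, subunit e, which takes part in joining synthase dimers, had the lowest fold change of the complex. It was at 14.2, 12.8 and 20.7 CPM in WT and 13.0, 10.3 and 11.7 in KO (-0.45 ± 0.17, edgeR adjusted p = 0.161). Its groups overlapped and WT replicate 3 stood apart: without that library the log2 fold change was -0.21 (adjusted p = 0.364). With no filter on low counts it was called lower (adjusted p = 0.00333). Atp5mpl, a small subunit of the membrane part, was at 41.1, 40.6 and 42.0 CPM in WT and 39.1, 37.3 and 36.1 in KO, without overlap (-0.14 ± 0.06, adjusted p = 0.251). Atp5s, a coupling factor B-like gene, was at 2.95, 2.66 and 3.23 against 2.56, 2.86 and 2.69 CPM.

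Summed over the subunits of a complex, the mean of the KO libraries was 1.93% to 6.96% above that of WT. Complex I summed to 1939 ± 57.9 CPM in WT and 1977 ± 33.1 in KO, complex II to 515 ± 12.2 and 529 ± 3.26, and complex III to 928 ± 18.7 and 948 ± 26.1, all with overlapping libraries. The sums of complex IV, 1414 ± 36.9 against 1485 ± 33.4 CPM (4.99% higher), and of complex V, 3876 ± 109 against 4145 ± 77.2 CPM (6.96% higher), did not overlap. No test was made on these sums, which weight genes by their counts. Atp5a1 and Atp5b held 58.2% to 61.2% of the complex V counts in each library, and without them the complex differed by 3.09% (1569 ± 39.6 against 1618 ± 40.0 CPM). All subunits together summed to 8910, 8523 and 8583 CPM in WT and 9265, 9058 and 8926 in KO, without overlap but with WT replicate 1 and KO replicate 3 nearly level.

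Within a genotype the subunits were not spread evenly over the libraries. WT replicate 1 was the highest WT library for 45 of 82 subunits (54.9%, against 40.7% of all tested genes) and WT replicate 2 the lowest for 46 (56.1%, against 24.4%). KO replicate 1 was the highest KO library for 48 (58.5%, against 34.1%) and KO replicate 3 the lowest for 45 (54.9%, against 33.7%). These shares are a description, since the subunits share their libraries. The median difference from the mean of the 6 libraries, of log2 of CPM + 0.5, was 0.03, -0.05 and -0.01 in WT replicates 1, 2 and 3 and 0.05, 0.02 and -0.02 in KO replicates 1, 2 and 3. Over all tested genes it lay between -0.00 and 0.01. For subunits of at least 20 CPM the highest WT library was a median of 1.11-fold above the lowest and the highest KO library 1.06-fold, beside 1.12-fold and 1.06-fold for all genes at that level.

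**Figure D3:**
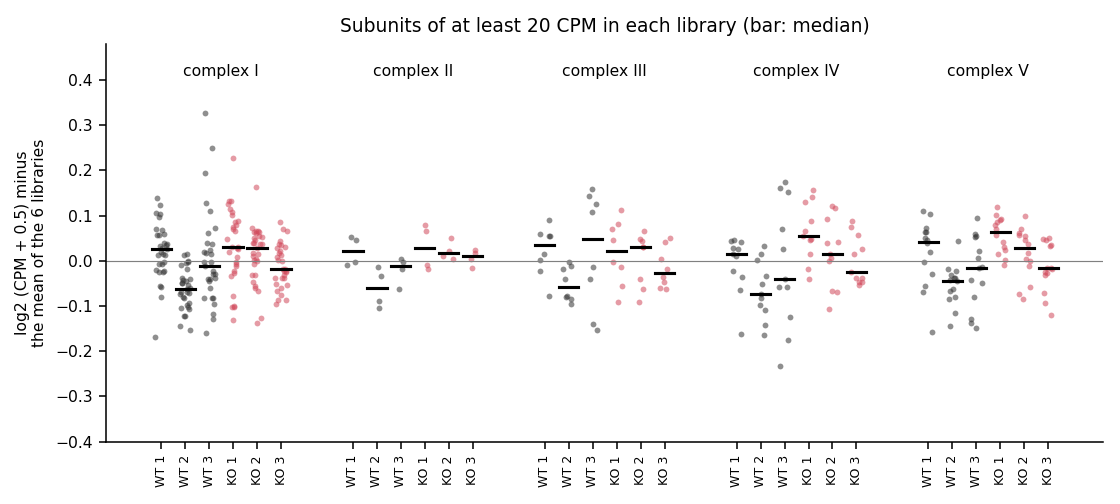
Each subunit of at least 20 CPM (points, log2 of CPM + 0.5) as its difference from its mean over the 6 libraries, by complex and library, with the median as a bar. The median of WT replicate 2 lies below 0 in every complex and that of KO replicate 1 above 0.

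None of the subunits encoded by mitochondrial DNA, which complete complexes I, III, IV and V, passed the threshold. Of 13 such genes 11 were tested and 0 called by edgeR. An unadjusted p under 0.05 was found for 3 of the 11, against 21.1% of all genes. These were mt-Nd2, mt-Nd3 and mt-Nd6, all with a log2 fold change above 0. The median log2 fold change was 0.24, with 8 genes above 0 and 3 below. These differences were bounded less closely than those of the nuclear subunits. The interval lay within a 1.5-fold change for 5 of the 11 (45.5%), against 91.5% of nuclear subunits and 63.4% of all genes. The lack of calls therefore does not show equal levels. Counts were uneven: mt-Co1 held 19914 to 31071 per library, mt-Co2 41 to 87 and mt-Nd3 6 to 17. Multi-mapping reads were not counted, and their part in this was not tested. The 13 genes summed to 950, 1188 and 1309 CPM in WT and 1266, 1140 and 1151 in KO, the WT libraries spreading around all the KO libraries. This sum is weighted to genes of many counts. WT replicate 1, the highest WT library for most nuclear subunits, was the lowest here. The ratio of mitochondrial to nuclear subunit counts was 0.107, 0.139 and 0.153 in WT and 0.137, 0.126 and 0.129 in KO.

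Other genes of mitochondrial energy metabolism gave few calls. The lists were chosen with earlier results of these data known, and are set beside the 6.39% of all genes called. Cytochrome c (Cycs), the carrier between complexes III and IV, was at 139, 147 and 149 CPM in WT and 168, 167 and 156 in KO, without overlap (0.17 ± 0.05, edgeR adjusted p = 0.0758). Cyc1 encodes cytochrome c1, a subunit of complex III that the rule misses by its symbol. It was at 162 ± 6.71 against 169 ± 1.40 CPM, also without overlap (0.06 ± 0.05, edgeR adjusted p = 0.547). None of 17 tested assembly factors of complex I, 4 of complex II, 23 of complex IV or 6 of complex V was called. Of 6 for complex III, Uqcc2 fell, by 0.27 ± 0.07 on the log2 scale (35.5 ± 1.15 to 29.4 ± 1.57 CPM, adjusted p = 0.0490). Uqcc2 was no longer called by edgeR without WT replicate 2 or 3, or without any 1 KO replicate (adjusted p up to 0.197). The same held with upper-quartile scaling (0.0528) and with the replicate block (0.0784). Of the 23 assembly factors of complex IV, 6 lay above 0 and 17 below. Pet100 had the smallest adjusted p of these 23 (-0.56 ± 0.15, edgeR adjusted p = 0.0563), with all KO libraries below all WT libraries. Summed assembly factors of complexes III and IV differed by -5.38% and -3.20% in KO, without overlap. Those of complexes I, II and V overlapped, and no test was made on these sums. Of 19 genes of mitochondrial biogenesis none was called (median -0.04). The factors whose words were searched in the promoters were at 90.9 ± 8.08 and 89.4 ± 3.44 CPM for Nrf1, 105 ± 8.13 and 99.7 ± 0.755 for Gabpa and 180 ± 13.0 and 173 ± 1.73 for Yy1, in WT and KO, each with overlap. Of 13 ubiquinone synthesis genes none was called (median 0.14).

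Of 20 citric acid cycle genes, 1 was called higher in KO and 0 lower. It was Mdh1, the cytosolic malate dehydrogenase kept on that list, from 123 ± 0.850 to 147 ± 1.38 CPM (0.26 ± 0.05, edgeR adjusted p = 0.00681). Without any 1 KO replicate its adjusted p was 0.0550 to 0.0666. Before adjustment 9 of the 20 had an edgeR p under 0.05 (7 higher, 2 lower), against 21.1% of all genes. Groups did not overlap for 50% (8 with KO above, 2 below), against 26.8%. Their summed CPM was 7.17% higher in KO, without overlap, and was not tested. In the mitochondrial ribosome 1 of 49 large subunit genes rose (Mrpl35, 0.26 ± 0.07, adjusted p = 0.0491) and 1 of 29 small subunit genes fell (Mrps21, by 0.27 ± 0.07, adjusted p = 0.0468), and without WT replicate 2 or 3, or any KO replicate, neither passed (adjusted p up to 0.254 and 0.184). With the replicate block edgeR called neither Mrpl35 nor Mrps21 (adjusted p = 0.0948 and 0.0979). Mrpl35 also missed the threshold with DESeq2 size factors in edgeR (0.0526) and with at least 10 counts in every library (0.0546). Of 80 cytosolic ribosomal proteins none was called (median -0.01).

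Glycolysis, the cytosolic route to ATP, had more calls. Of its 19 genes 7 rose and none fell: the glucose transporter gene Slc2a3 and the enzyme genes Gpi1, Aldoa, Gapdh, Pgk1, Pgam1 and Eno1. The median log2 fold change was 0.27 and all 19 lay above 0. Slc2a3 was at 31.8, 28.9 and 30.4 CPM in WT and 51.5, 51.0 and 50.4 in KO, far apart (0.75 ± 0.06, edgeR adjusted p = 5.66e-05). Pgam1 (184 ± 12.4 to 237 ± 6.57 CPM, 0.37 ± 0.06, adjusted p = 0.00312), Gpi1 (0.34 ± 0.05, adjusted p = 0.00376) and Eno1 (749 ± 98.7 to 985 ± 23.7 CPM, 0.39 ± 0.08, adjusted p = 0.0186) followed. Called glycolysis genes numbered 15 without WT replicate 1, 4 without WT replicate 2, 3 without KO replicate 1, and 4 without KO replicate 2 or KO replicate 3. Eno1 was not among those called without WT replicate 2 or any 1 KO replicate (adjusted p 0.0561 to 0.0800). The difference between glycolysis genes and respiratory chain subunits was not tested.

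**Figure D4:**
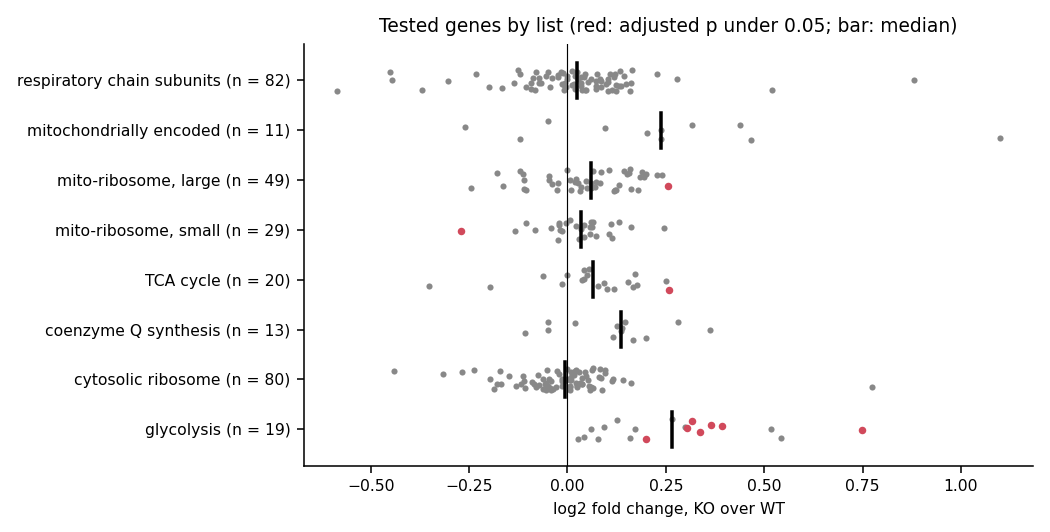
Log2 fold change (KO over WT) of each tested gene in the respiratory chain and in 7 other lists, 1 point per gene, with called genes in red and the median as a bar. The respiratory chain has no called gene and a median of 0.02, and glycolysis has 7 called genes and a median of 0.27.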

How the data were processed

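RNA-seq of 6 of the 13 samples was analysed, and the other 7 were not analysed here. The deposited values are raw counts per gene, made by the authors with featureCounts 2.0.1 and GENCODE vM33, per the file headers, which set no strand and no multi-mapping reads. Aligner and genome build: not given in the sources used here. In the record of units the deposited column of WT replicate 2 is entered as other, though it holds counts like the rest. Even numbers made up 65.6% to 67.7% of the counts between 1 and 20 but 48.8% to 50.9% of those from 1000 up, so low counts may rest on fewer fragments than counts. No 2 libraries agreed within sampling noise (the smallest chi-square over its degrees of freedom was 4.19). Symbols were matched for 51948 of 56941 IDs (91.2%).

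Libraries were compared with edgeR 4.0.16 in R 4.3.3 (default filter on low counts, TMM, robust quasi-likelihood F-test), adjusted by Benjamini and Hochberg over 14681 genes at 0.05; the biological coefficient of variation was 9.28%. Each SE was derived from the fold change and its F statistic. CPM uses TMM library sizes, with SD over 3 libraries, and is not scaled to gene length, so levels are not compared between genes. The fit was tested on simulated data. Alternatives used DESeq2 1.42.0 and limma 3.58.1, other scalings and filters, the replicate number as a block, and each library left out.

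The members and lists were chosen with earlier results of these data known. Named were, per complex, the called members or the 2 with the largest absolute log2 fold change, the 3 highest and the 1 lowest by level, all Sdh genes and genes of families with tissue-specific copies, and called genes of the other lists (at most 4 a list). Levels were to be ranked per gene length and were ranked by CPM, since exon lengths were not at hand. Other genes named were chosen after their values were seen, and some genes that the rule picks are left out of the text and of the plot of single subunits.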

Additional observations from a re-analysis of the deposited data

How the results depend on the processing

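Of 13 alternatives, 8 called no subunit: upper-quartile factors, DESeq2 size factors in edgeR, at least 10 counts in every library, the replicate block, and leaving out WT replicate 2 or any KO replicate. DESeq2's Wald test called 2 higher, limma-voom with quality weights 12 higher, and no filter on low counts 2 higher and 1 lower. In that order these were 2.44%, 14.6% and 3.61% of the subunits, against 8.32%, 20% and 6.01% of all genes. Leaving out 1 library gave 0 to 14 subunits higher and 0 to 1 lower, with 295 to 2961 of all genes called; the cause was not tested. In all, 17 subunits were called by at least 1 alternative (2 of them lower, Atp5k and Ndufb4) and 65 by none. The matching count over all genes was not made, and limma-voom alone called 20% of all genes, so the 17 are not read as particular to the subunits. The median log2 fold change of the subunits stayed between 0.01 and 0.05, and 57 of 82 subunits kept 1 sign throughout. Replicate numbers are shared by the genotypes, but libraries of the same number did not deviate together (correlations of -0.04, -0.04 and 0.03), and not every library correlated best with its own number, so the numbers were not taken as pairs. The fit with the replicate block called 0 subunits higher and 0 lower, and 671 of all genes against 938 without it; Uqcc2, Mrpl35 and Mrps21 were not called in it (adjusted p = 0.0784, 0.0948 and 0.0979). The alternative with an offset for transcript length was not run, since exon lengths were not at hand. The median half-width of the 95% interval was 0.62 on the log2 scale for the 7 subunits under 5 CPM, 0.24 for the 7 from 5 to 20 CPM and 0.13 for the 68 from 20 CPM, so a difference of a given size was less detectable in genes of few counts.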
